A study of Mus musculus with 47 samples.

Results

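Circadian clock genes were followed in the livers of 47 mice, 10 genes of the 21877 tested: *Arntl*, *Clock*, *Npas2*, *Per1*, *Per2*, *Per3*, *Cry1*, *Nr1d1*, *Nr1d2* and *Dbp*. They were chosen by name, and every array probe carrying one of these names was taken, which gave 23 probes of 56605 gene probes. To be tested, a probe had to exceed background clearly in 5 or more mice of some group, and 20 of the 23 probes, at least 1 for each gene, did so. The 3 that did not were further probes of *Clock*, *Per1* and *Per3*, above background on 20, 1 and 16 arrays.

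The mice were *Pxr*+/+ and *Pxr*-/- littermates on the C57BL/6J background, born to *Pxr*+/- dams and 6 months old, and PXR (gene *Nr1i2*) is the nuclear receptor that senses drugs and steroids in the liver. Males and females of each genotype were kept apart by sex and genotype from 5 weeks. They drank plain water (Cont) or, for 2 weeks, water with an antibiotic mixture that depletes the gut bacteria (ATB), made of vancomycin at 0.5 g/L with ampicillin and neomycin, each at 1 g/L. These 8 groups held 6 mice each, except the male *Pxr*-/- Cont group with 5, and the deletion was carried by every cell of the animal. All mice lived in a cycle of 12 h light and 12 h dark and were sacrificed at ZT6, that is 6 h after lights on. Each group was housed in 2 cages, and since the cage of a mouse was not given, no model held it and p-values measure the spread between mice alone.

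The hepatic clock is a loop of transcription factors. ARNTL (also called BMAL1) pairs with CLOCK or with its relative NPAS2, binds a sequence named the E-box and activates the *Per*, *Cry*, *Nr1d* and *Dbp* genes. PER and CRY proteins then hold this pair back, and the nuclear receptors NR1D1 and NR1D2 (REV-ERBs) repress *Arntl* through a site named RORE. DBP and its relatives TEF and HLF activate genes through the D-box, where NFIL3 represses. In mouse liver *Arntl* and *Npas2* mRNA are high when *Dbp*, *Nr1d1* and *Per3* mRNA are low, and *Per1* and *Per2* also respond to hormones and feeding.

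The DNA sites of this loop were looked for in the promoters of the 10 genes, to show which of them carry its letters near their start. A RefSeq table for GRCm38.p6 gave 13 promoters for 9 of the 10 genes, each running from 250 bases before to 50 bases after a start site. *Per2* was not among them. The letters searched on both strands were CACGTG for the E-box, TTATGTAA or TTACGTAA for the D-box and NTAGGTCA for the RORE. Of all 32851 promoters in the table, 7.15% held the E-box, 1.06% the D-box and 2.59% the RORE. Among the clock genes, 2 held the E-box, 1 the D-box and 1 the RORE, and the hits did not overlap each other. The 5 hits are printed 5′ to 3′ on the strand of the gene with the motif in capitals.
Per3, first D-box, chr4:151044852-151044881, minus strand: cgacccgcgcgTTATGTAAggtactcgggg
Per3, second D-box, chr4:151044805-151044834, minus strand: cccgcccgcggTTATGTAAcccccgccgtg
Per1, E-box, chr11:69098771-69098800, plus strand: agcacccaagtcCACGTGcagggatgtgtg
Cry1, E-box, chr10:85185097-85185126, minus strand: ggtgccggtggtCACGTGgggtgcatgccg
Arntl, RORE, chr7:113207530-113207558, plus strand: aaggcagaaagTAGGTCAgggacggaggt
The D-boxes of *Per3* began 205 and 158 bases before its start site, and the E-boxes of *Per1* and *Cry1* began 166 and 60 bases before theirs. The RORE of *Arntl* began 31 bases into the transcript of its second start site. Of the promoters of 6 further clock and clock output genes that were searched, those of *Tef* and *Ciart* held E-boxes, that of *Nfil3* a RORE, and those of *Cry2*, *Hlf* and *Usp2* none of the motifs. These matches are descriptions of letters, not of bound factors.

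The labels of sex and genotype were checked on marker genes. *Xist*, *Ddx3y*, *Uty* and *Eif2s3y* separated all males from all females, while the probe for *Kdm5d* overlapped between the sexes. *Cyp2c55*, a cytochrome P450 gene that the study names as a PXR target, was between 9.13 and 10.77 in every *Pxr*-/- mouse against 6.24 to 8.49 in every *Pxr*+/+ mouse (log2 signal). It separated the labels by genotype, which does not show the deletion itself. The probe for *Nr1i2* overlapped between genotypes, and whether it lies in the deleted part was not given. All 10 hepatocyte markers were tested, with a summed level between 20.35 and 20.75 (log2). The 75th percentile of the median signals was between 306 and 492.5 and the median background between 15 and 21, and no member probe was saturated on any array. In whole liver, fewer cells of a type and less RNA per cell cannot be told apart.

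*Dbp*, the output factor of the clock, was the most variable of the 10 genes. On the log2 scale of the median signal, where 1 unit is a doubling, its brightest probe (mm9 chr7:52965265-52965324, plus strand) ran from 7.48 to 14.40 over the 47 mice, a 121-fold range. The spread lay mostly between mice of the same group. Its standard deviation (SD) within groups was 1.65, against a median of 0.19 over all 32979 tested probes, and only 2 probes on the array varied more. The second *Dbp* probe (mm9 chr7:52965461-52965520) had an SD of 1.62, rank 5 of all probes.

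In male *Pxr*+/+ mice, *Dbp* had a lowest, median and highest log2 signal of 8.52, 10.72 and 11.81 in Cont and of 9.96, 12.29 and 14.40 in ATB. In male *Pxr*-/- mice the 5 Cont livers read 8.93, 9.99, 11.42, 12.14 and 13.55, and the ATB livers ran from 11.01 through a median of 11.71 to 14.35. The highest ATB males of both genotypes were thus above every Cont male, but the groups overlapped. In female *Pxr*-/- mice, *Dbp* was 7.48, 10.61 and 12.52 (lowest, median, highest) in Cont and 10.28, 11.63 and 13.01 in ATB, again with overlap.

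Female *Pxr*+/+ mice were the lowest groups and the most uneven. In Cont, 5 of the 6 livers read 8.05, 8.38, 8.53, 8.72 and 8.84, and the other (replicate 1) read 13.71. In ATB, 4 livers read between 8.49 and 8.78, replicate 2 read 10.62 and replicate 1 read 13.97. The 2 high livers lay on the same slide, which also held the lowest *Dbp* value of all 47 arrays, 7.48 in a female *Pxr*-/- Cont mouse. Within a group, the highest liver exceeded the lowest by between 6.64-fold (female *Pxr*-/- ATB) and 50.8-fold (female *Pxr*+/+ Cont).

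**Figure D1:**
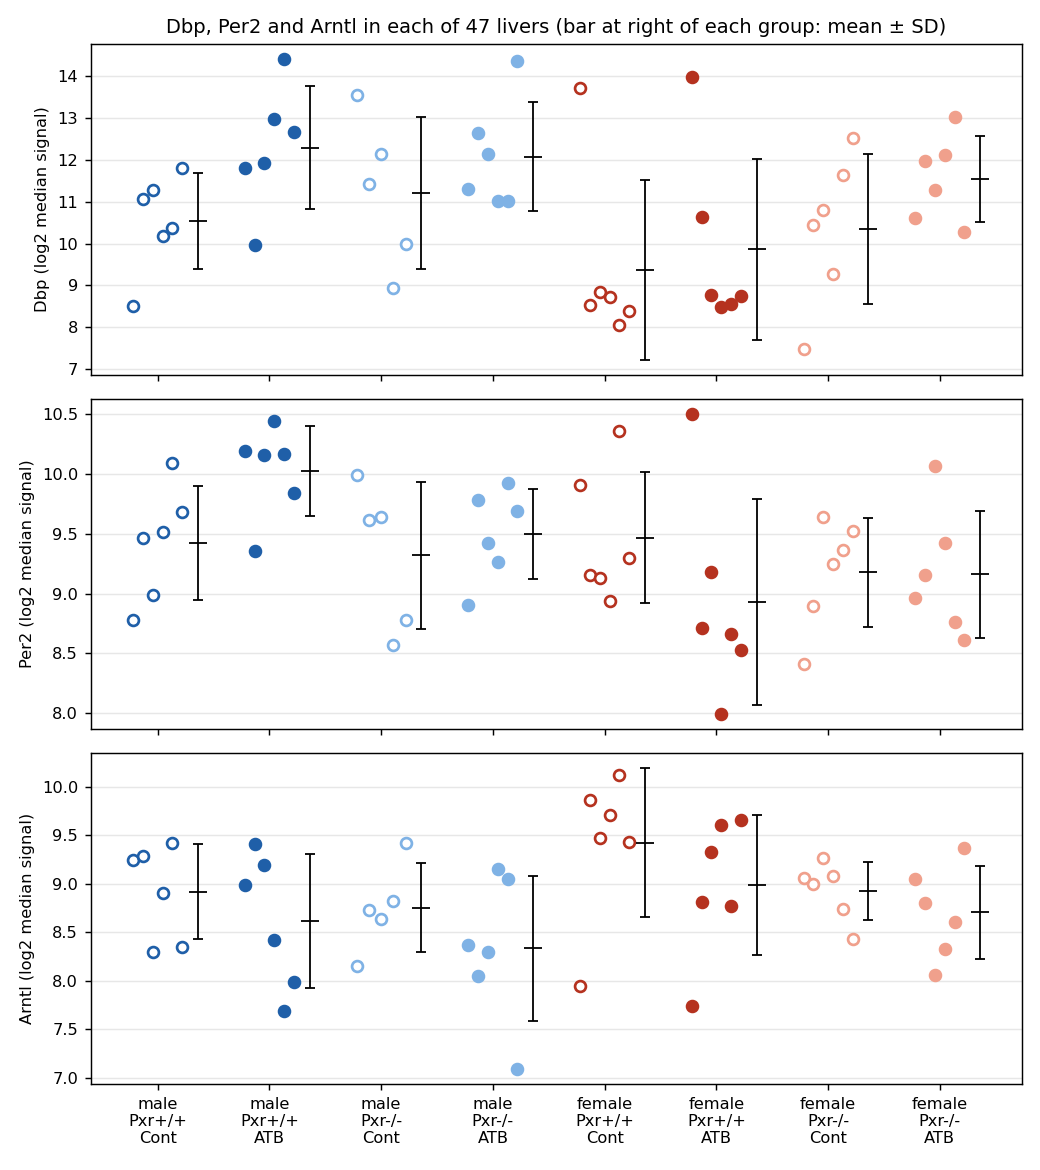
Log2 median signal of *Dbp* (top), *Per2* (middle) and *Arntl* (bottom) in each of 47 livers; open circles are Cont, filled circles ATB, and the bar at the right of each group is the mean ± SD. Groups overlapped for all 3 genes, *Dbp* ran from 7.48 to 14.40, and the 2 female *Pxr*+/+ livers with *Dbp* at 13.71 and 13.97 had the lowest *Arntl* of their groups.

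Ordered by mean, *Dbp* was 12.29 ± 1.48 (SD, n = 6) in male *Pxr*+/+ ATB, 12.07 ± 1.29 in male *Pxr*-/- ATB, 11.54 ± 1.02 in female *Pxr*-/- ATB and 11.21 ± 1.81 (n = 5) in male *Pxr*-/- Cont mice. Next came male *Pxr*+/+ Cont at 10.54 ± 1.16, female *Pxr*-/- Cont at 10.36 ± 1.79, female *Pxr*+/+ ATB at 9.86 ± 2.17 and female *Pxr*+/+ Cont at 9.37 ± 2.14. No step between neighbours in this order exceeded the SD of either group.

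*Arntl* had nearly the reverse order of means. It was highest in female *Pxr*+/+ Cont mice (9.42 ± 0.77, SD, n = 6), followed by female *Pxr*+/+ ATB (8.99 ± 0.72), female *Pxr*-/- Cont (8.93 ± 0.30) and male *Pxr*+/+ Cont mice (8.92 ± 0.49). Lower means were found in male *Pxr*-/- Cont (8.75 ± 0.46, n = 5), female *Pxr*-/- ATB (8.70 ± 0.48), male *Pxr*+/+ ATB (8.61 ± 0.69) and male *Pxr*-/- ATB mice (8.33 ± 0.75). Neighbours in this order too differed by less than the SD of the more variable group. Among the *Per* genes, group means of *Per1* ran from 11.32 (male *Pxr*+/+ Cont) to 12.15 (female *Pxr*-/- Cont), of *Per2* from 8.93 (female *Pxr*+/+ ATB) to 10.03 (male *Pxr*+/+ ATB) and of *Per3* from 6.97 (female *Pxr*+/+ Cont) to 7.89 (male *Pxr*-/- ATB). Those of *Nr1d1* ran from 8.48 to 9.18, of *Nr1d2* from 9.65 to 10.36, of *Cry1* from 5.47 to 5.94, of *Npas2* from 4.67 to 5.12 and of *Clock* from 10.45 to 10.58.

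The other clock genes split by how far they varied. *Per3*, a PER protein gene, had an SD within groups of 1.00 and a 12.1-fold range, *Per1* an SD of 0.83 and a 15.7-fold range, and *Nr1d1* an SD of 0.70 and a 9.75-fold range. *Arntl* (SD 0.61), *Per2* (0.55) and *Nr1d2* (0.55) followed, with 0.922%, 1.29% and 1.32% of probes more variable. *Cry1*, which encodes a repressor of the ARNTL pair, had an SD of 0.34, with 7.62% of probes more variable. *Npas2* (0.25) and *Clock* (0.24) varied least, with 22.9% and 24.7% more variable. The share of each gene's variance that lay within groups was 69.9% for *Dbp*, 77.2% for *Arntl* and 97.2% for *Clock*.

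Probes of a gene were also compared. All 3 *Arntl* probes (SD 0.44, 0.61 and 0.54), all 3 *Nr1d2* probes (0.55, 0.47 and 0.52) and both *Cry1* probes (0.34 and 0.34) varied to like extents. *Per2* was the exception, since its dim first probe, above background on 37 of 47 arrays, had an SD of 0.14 beside 0.55 for the bright probe (mm9 chr1:93312595-93312654, minus strand). *Npas2* was dim, above background on 19 of 47 arrays, and met the filter through the female *Pxr*+/+ Cont group, where 5 of 6 mice were above background.

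Correlations between the clock genes were computed on the deviations of the mice from their group means, so that no group difference enters them. Over 47 mice, 43 of the 45 gene pairs were correlated at an adjusted p of 0.05 or less by Pearson's r, and 43 by Spearman's rho (permutation of mice within groups, 100000 draws, two-sided, Benjamini-Hochberg over 45 pairs). Of these, 20 pairs were positive and 23 negative. *Dbp*, *Per3*, *Nr1d1* and *Nr1d2* were positively correlated with each other, and *Arntl*, *Npas2*, *Clock* and *Cry1* went with each other and against them.

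*Per3* followed *Dbp* most closely, with r = 0.93 (rho = 0.91, permutation p = 1e-05 for both, the smallest that these draws can give, adjusted p = 3e-05). The labels give each array a wash batch, the bath in which it was washed, and batches with at least 2 mice of each group allow a value of their own. The correlation was 0.93 within wash batch 1 and 0.94 within wash batch 2, and between 0.90 and 0.97 in the 7 groups of 6 mice. Without the 2 mice farthest from the median of *Per3* it was 0.92.

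The REV-ERB genes went the same way. *Nr1d1* followed *Dbp* with r = 0.82 (rho = 0.84, permutation p = 1e-05, adjusted p = 3e-05; 0.84 and 0.86 in wash batches 1 and 2), and *Nr1d2* with r = 0.81 (rho = 0.79, permutation p = 1e-05, adjusted p = 3e-05; 0.92 and 0.81). Without the 2 mice farthest from the median of the REV-ERB gene, the correlations were 0.82 and 0.79. *Nr1d1* and *Per3* were joined as closely, with r = 0.89 (rho = 0.90, permutation p = 1e-05, adjusted p = 3e-05; 0.90 and 0.90, and 0.88 without 2 mice).

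*Arntl*, the driver of the loop, ran against these genes. Its r with *Dbp* was -0.80 (rho = -0.75, permutation p = 1e-05, adjusted p = 3e-05), it was -0.81 and -0.73 within wash batches 1 and 2, and it was below 0 in all 7 groups of 6, from -0.96 to -0.54. Without the 2 mice farthest from the median of *Arntl* it was -0.72. In the female *Pxr*+/+ Cont group, the liver with *Dbp* at 13.71 had *Arntl* at 7.95, and the other 5 had *Arntl* between 9.43 and 10.12.

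*Cry1* went with *Arntl* (r = 0.80, rho = 0.78, permutation p = 1e-05, adjusted p = 3e-05; 0.78 and 0.80 in wash batches 1 and 2, 0.74 without 2 mice) and against *Per3* (r = -0.81, rho = -0.83, permutation p = 1e-05, adjusted p = 3e-05; -0.71 and -0.89, and -0.80 without 2 mice). *Npas2*, the partner of ARNTL, also went with *Arntl*, with r = 0.71 (rho = 0.75, permutation p = 1e-05, adjusted p = 3e-05; 0.80 and 0.54, and 0.65 without 2 mice), although most of its values were near background. *Clock*, which varied least, still followed *Arntl* with r = 0.64 (rho = 0.58, permutation p = 4e-05, adjusted p = 0.000106; 0.60 and 0.80, and 0.59 without 2 mice).

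**Figure D2:**
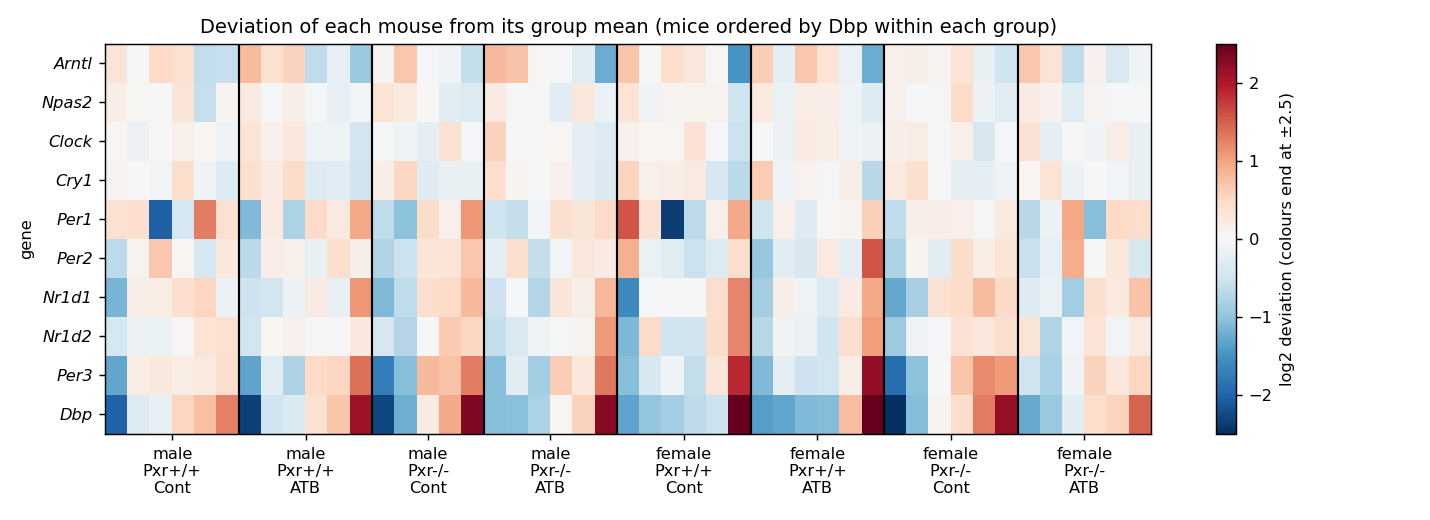
Log2 deviation of each of 47 mice (columns) from the mean of its group for the 10 clock genes (rows); mice are ordered by *Dbp* within each of the 8 groups, so the order of the bottom row is set by construction. *Per3*, *Nr1d1* and *Nr1d2* turn from blue to red with *Dbp* in most groups, and *Arntl* and *Cry1* turn from red to blue.

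**Figure D3:**
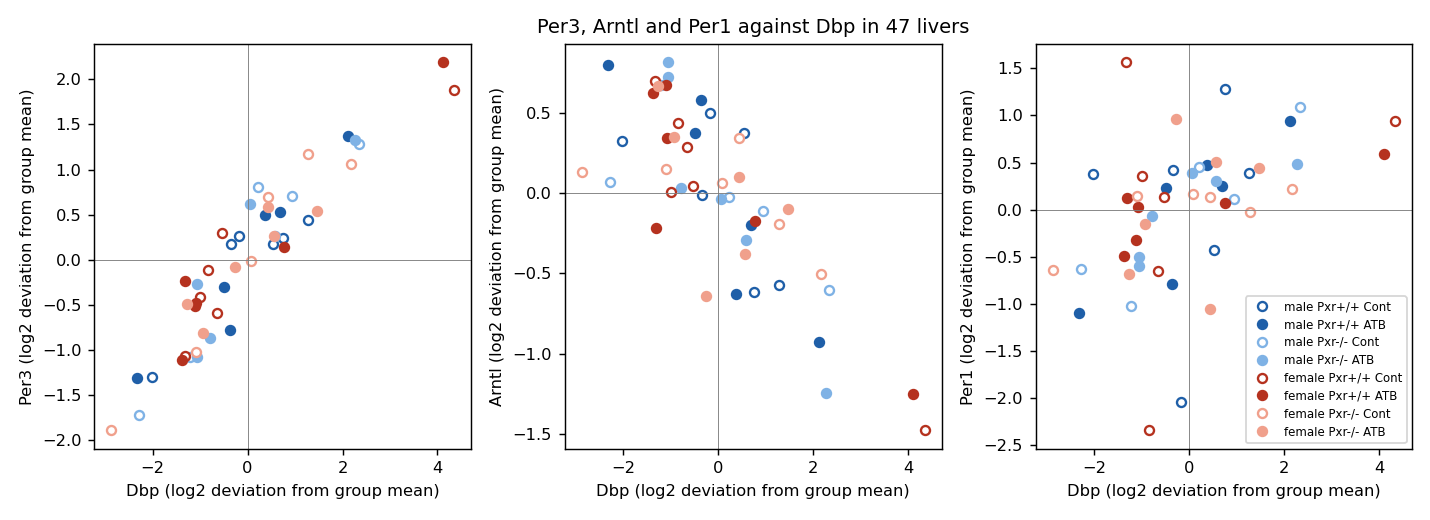
Log2 deviation from the group mean of *Per3* (left), *Arntl* (middle) and *Per1* (right) against that of *Dbp* in 47 mice; open circles are Cont, filled circles ATB, and colors give sex and genotype. *Per3* rises with *Dbp* (r = 0.93), *Arntl* falls (r = -0.80) and *Per1* is looser (r = 0.45).

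*Per1* and *Per2* followed *Dbp* less closely than *Per3* and the REV-ERB genes did. *Clock* and *Npas2* went against *Dbp* with r of -0.55 and -0.61. *Per1* followed *Dbp* with r = 0.45 (rho = 0.53, permutation p = 0.00317 and 0.00025, adjusted p = 0.00476; 0.54 and 0.30 in wash batches 1 and 2, 0.52 without 2 mice), and *Per2* with r = 0.61 (rho = 0.58, permutation p = 0.00031 and 0.00015, adjusted p = 0.000533; 0.79 and 0.35, and 0.51 without 2 mice). By rho, *Clock* with *Nr1d2* and *Clock* with *Per2* missed the threshold. The pairs that missed it by r were *Clock* with *Per2* (r = -0.25, rho = -0.26, permutation p = 0.0958, adjusted p = 0.098) and *Per1* with *Nr1d1* (r = 0.21, rho = 0.39, permutation p = 0.220, adjusted p = 0.220). *Per1* was lowest in a male *Pxr*+/+ Cont liver (9.28) and a female *Pxr*+/+ Cont liver (9.35), whose *Dbp* values were 10.36 and 8.53.

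Within groups of 6, 26 of the 43 pairs had the same sign in all 7 groups, and all 43 had the same sign within wash batches 1 and 2. Wash batch 1 alone, with 23 mice, gave 23 pairs. Wash batch 2, with 2 mice a group, gave 0, where the smallest p that shuffling within groups allows is 0.00781 before adjustment.

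**Figure D4:**
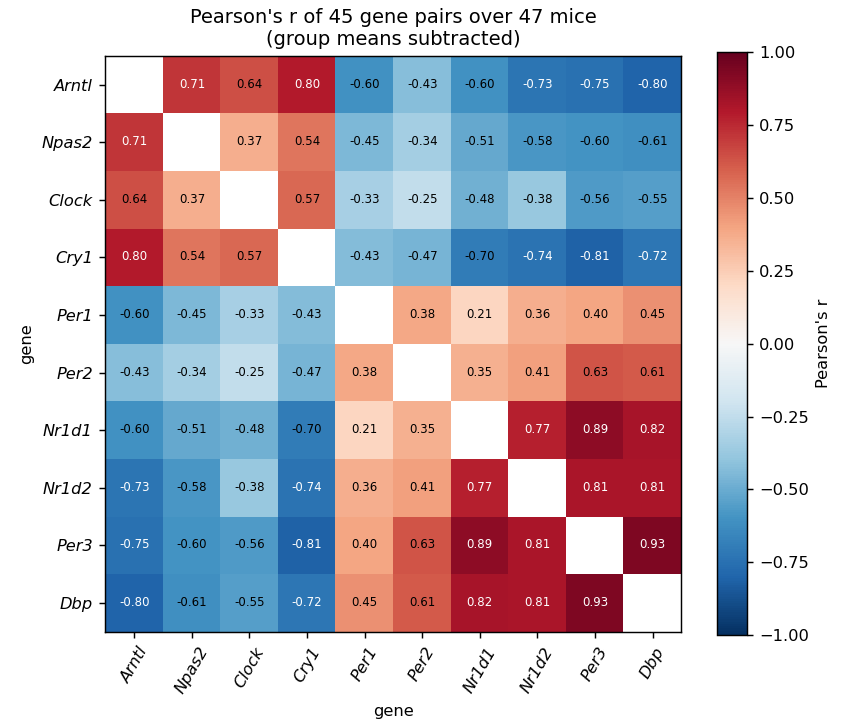
Pearson's r of each of the 45 pairs of clock genes over 47 mice after group means were subtracted; red is positive and blue negative. Blocks of like sign stand out, *Arntl* with *Npas2*, *Clock* and *Cry1*, and *Nr1d1* with *Nr1d2*, *Per3* and *Dbp* (r = 0.77 to 0.93), and the r between the blocks is negative throughout.

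Among all other tested genes, taking for each its best probe, *Tef*, the relative of *Dbp*, was most like it over 47 mice (r = 0.95, group means subtracted), followed by *Tbc1d10a* (0.86) and *Cry2* (0.84), which encodes the other cryptochrome. Among the lowest were *Nfil3* (-0.86), which represses at the D-box, and *Clpx* (-0.80), a mitochondrial protease subunit. For *Arntl* the highest were *Lonrf3* (0.93), *Rnf125* (0.92) and *Lgalsl* (0.90), and the lowest were *Nrg4* (-0.87), *Ciart* (-0.85), a repressor of the ARNTL pair, and *Klf13* (-0.85). These genes were picked from all tested genes for their r, so no p is given. The hits in the promoters of *Tef*, *Nfil3* and *Ciart*, all named here, are shown for their letters.
Tef, E-box of the first start site, chr15:81802534-81802563, plus strand: gtgctgtggctcCACGTGctgcagctggca
Tef, E-box of the second start site, chr15:81811264-81811293, plus strand: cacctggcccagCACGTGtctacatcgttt
Ciart, E-box beginning 116 bases before the start, chr3:95882327-95882356, minus strand: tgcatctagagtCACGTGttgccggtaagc
Ciart, E-box beginning 58 bases before the start, chr3:95882269-95882298, minus strand: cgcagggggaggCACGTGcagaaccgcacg
Ciart, E-box beginning 44 bases before the start, chr3:95882255-95882284, minus strand: cgtgcagaaccgCACGTGtctgggaggggg
Nfil3, RORE, chr13:52981034-52981062, minus strand: gcgctcggaacTGACCTActaacacacat
The last 2 *Ciart* windows overlap, and the RORE of *Nfil3* is read on the opposite strand (GRCm38.p6, as before).

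Lists of further genes, each by its brightest probe, were set against *Dbp* and *Per1* in 80 relations, with Benjamini-Hochberg adjustment over them. Of 16 other clock genes, 6 followed *Dbp* and 1, *Nfil3*, went against it. An r with *Dbp* at least as high as the lowest of these 6 was found in 9.39% of all genes. *Ciart* (r = 0.83, rho = 0.77, permutation p = 1e-05, adjusted p = 5.71e-05) and *Bhlhe40* (r = 0.73, rho = 0.69, permutation p = 1e-05, adjusted p = 5.71e-05), both repressors of the ARNTL pair, were among the 6. Of 8 clock output genes, 6 followed *Dbp*, among them *Usp2*, a ubiquitin protease (r = 0.77, rho = 0.74, permutation p = 1e-05, adjusted p = 5.71e-05). For these 6 the same share was 10.7% of all genes.

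Of 8 genes that glucocorticoids induce, 6 followed *Per1*, itself such a gene, and 5 followed *Dbp*. An r with *Dbp* at least as high as the lowest of the 5 was found in 7.53% of all genes. The other lists held genes that followed *Per1* too, with 5 of 8 clock output genes, 3 of 16 other clock genes (and 3 against it) and 4 of 8 temperature-responsive genes (and 1 against it). The median r with *Per1* was 0.54 over the glucocorticoid list and 0.53 over the clock output list, beside -0.01 over all genes. Of all genes, 2.77% had an r with *Per1* at least as high as the lowest of the 6 in the glucocorticoid list. For the genes that followed *Per1* in the clock output, other clock and temperature-responsive lists, this share was 2.70%, 6.76% and 3.79%. *Pck1*, which encodes the gluconeogenic enzyme PEPCK, had r = 0.83 with *Per1* (rho = 0.80, permutation p = 1e-05, adjusted p = 5.71e-05; 0.85 and 0.70 in wash batches 1 and 2, 0.75 without 2 mice) and r = 0.44 with *Dbp* (rho = 0.48, permutation p = 0.00275, adjusted p = 0.0069). *Tsc22d3*, which encodes the glucocorticoid-induced leucine zipper protein, had r = 0.77 with *Per1* (rho = 0.80, permutation p = 1e-05, adjusted p = 5.71e-05; 0.78 and 0.77) and r = 0.46 with *Dbp* (rho = 0.50, permutation p = 0.001, adjusted p = 0.00308). The difference between these correlations was not tested. *Fkbp5* followed both, with r = 0.62 for *Per1* and 0.58 for *Dbp* (rho = 0.70 and 0.58, permutation p = 1e-05 and 3e-05, adjusted p = 5.71e-05 and 0.000141). *Pck1*, *Tsc22d3* and *Fkbp5* were singled out after their values were seen.

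Measures of the arrays and of other cells were set against *Dbp*, *Arntl* and *Per1* in the same way (30 relations). The 75th percentile of the array was not correlated with *Dbp* at the threshold (r = 0.08, rho = -0.05, permutation p = 0.637, adjusted p = 0.869). The number of probes above background went with *Arntl* (r = 0.48, rho = 0.53, permutation p = 0.00203, adjusted p = 0.0305; 0.46 without 2 mice). Its r with *Dbp* was -0.38 (rho = -0.42, permutation p = 0.0175, adjusted p = 0.0751) and with *Per1* -0.35 (rho = -0.36, permutation p = 0.0246, adjusted p = 0.0859), both short of the threshold. The summed level of 10 of 10 hepatocyte markers went with *Dbp* (r = 0.41, rho = 0.35, permutation p = 0.00769, adjusted p = 0.0461) and with *Per1* (r = 0.56, rho = 0.58, permutation p = 2e-05, adjusted p = 6e-04). That of 7 of 7 sinusoidal endothelial markers, between 13.35 and 14.82, went with *Dbp* (r = 0.49, rho = 0.39, permutation p = 0.00329, adjusted p = 0.0328). The 4 of 5 B cell markers tested, whose sum was between 7.70 and 9.55, went against *Per1* (r = -0.35, rho = -0.48, permutation p = 0.00437, adjusted p = 0.0328). The part of these measures in the clock pattern was not tested.

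The first comparison asked whether depletion of the gut bacteria changed the clock genes. None of the 10 was called by limma at a false discovery rate of 0.05 and a fold change above 1.2 in any of the 4 backgrounds or in their mean. Over the 4 backgrounds *Dbp* was higher by 1.07 on the log2 scale after ATB (standard error, SE, 0.46, 95% interval 0.14 to 2.01, adjusted p = 0.172), and its second probe by 1.09 (SE 0.45, adjusted p = 0.155). *Cry1* differed by -0.21 (SE 0.10, adjusted p = 0.216) and *Arntl* by -0.34 (SE 0.17, adjusted p = 0.246). At an unadjusted p under 0.05, 2 of the 10 passed in the mean (*Dbp* and *Cry1*) and 2 in male *Pxr*+/+ mice (their less bright tested probes, of *Per2* at 0.25 and of *Per3*), and 0 in each of the other backgrounds. Of all genes, 25.7% had a probe at an unadjusted p under 0.05 in the mean and 22.9% in male *Pxr*+/+ mice, close to the 2 of 10.

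Against these counts stands how many of all 21877 genes were called. ATB changed 1.33% of genes in male *Pxr*+/+, 0.11% in male *Pxr*-/-, 0.0183% in female *Pxr*+/+ and 0.0411% in female *Pxr*-/- mice, and 2.66% in the mean, which leaves 0 of 10 close to the background. The *Dbp* difference between ATB and Cont was 0.56, 1.99 and 0.46 within wash batches 1, 2 and 3. Without the female *Pxr*+/+ Cont liver with high *Dbp*, the mean difference was 1.301 (SE 0.42). This liver is singled out by its *Dbp* value, which is what is compared, so no p is given. Leaving out any other single mouse did not bring *Dbp* past the threshold.

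The less bright tested probe of *Per3* (mm9 chr4:150378473-150378532, minus strand) had the largest single difference of a *Per* gene with ATB. In male *Pxr*+/+ mice it read 5.62 to 6.45 in Cont and 6.21 to 7.93 in ATB, and differed by 0.94 (SE 0.40, adjusted p = 0.21). Fitted on these 2 groups alone, where the spread was smaller, its adjusted p was 0.0225 (SE 0.17). The brighter *Per3* probe read 5.77 to 7.50 in Cont and 6.55 to 9.24 in ATB, and its groups overlapped too.

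The second comparison asked whether the loss of PXR changed the clock genes. None of the 10 was called, in a setting where 0.192% of genes were called in male Cont, 1.25% in male ATB, 4.13% in female Cont, 0.229% in female ATB mice and 4.46% in the mean of the 4 backgrounds. In the mean, the *Dbp* difference from *Pxr*+/+ mice was 0.78 (SE 0.46, 95% interval -0.15 to 1.71, adjusted p = 0.256) and that of *Arntl* -0.31 (SE 0.17, 95% interval -0.65 to 0.04, adjusted p = 0.224). At an unadjusted p under 0.05, 1 of the 10 passed in the mean (*Arntl* by its probe 3, at -0.315, adjusted p = 0.164) and 0 in each single background, where 36.4% of all genes had such a probe in the mean and between 6.78% and 27.7% in the single backgrounds. The *Dbp* difference was 0.77, 0.84 and 1.01 within wash batches 1, 2 and 3. Without both female *Pxr*+/+ livers with high *Dbp*, the differences were 1.21 (SE 0.37) for *Dbp* and -0.45 (SE 0.15) for *Arntl*, and since these livers were left out for their *Dbp* value, which is what is compared, no p is given. Markers of other cells differed with the genotype, with 7 of 12 macrophage and 4 of 7 endothelial markers lower without PXR, beside 3.66% of all genes. The part of these markers was not tested. *Clock* differed by -0.02 (95% interval -0.17 to 0.12) and *Npas2* by -0.09 (95% interval -0.23 to 0.06).

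The third comparison set males against females, and here some clock genes were called. Over the 4 backgrounds *Dbp* was higher in males by 1.24 on the log2 scale, a 2.37-fold difference (SE 0.46, 95% interval 0.31 to 2.18, limma adjusted p = 0.0211), and its second probe by 1.08 (SE 0.45, adjusted p = 0.0401). *Per2* was higher in males by 0.38, a 1.304-fold difference (SE 0.155, adjusted p = 0.0338), although its dim probe differed by -0.04 (SE 0.04, adjusted p = 0.483). These 2 of 10 genes, both higher in males, stand beside 3.75% of all genes called higher in males in the same comparison. Called lower were 26.2%, and called in either direction 29.9%. In single backgrounds *Dbp* was not called, and *Per2* was called in *Pxr*+/+ ATB mice only. *Arntl* differed by -0.36 (SE 0.17, adjusted p = 0.0726). *Npas2* differed by -0.23 (SE 0.07), short of the 1.2-fold limit, and no p is given, since its probe was tested only through the female *Pxr*+/+ Cont group.

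The *Per2* call was lost without any of 8 single mice (male *Pxr*+/+ Cont replicate 5, male *Pxr*-/- Cont replicates 2 and 3, female *Pxr*+/+ Cont replicate 4, female *Pxr*+/+ ATB replicates 4 and 6, female *Pxr*-/- Cont replicate 1 and female *Pxr*-/- ATB replicate 6), with a difference of at least 0.34, and with no filter on dim probes, and that of the second *Dbp* probe without any of 24, while the brighter *Dbp* probe was called without each of the 47 in turn. Markers of other cells differed as well, with 11 of 12 macrophage, 5 of 7 T and NK cell, 7 of 7 stellate and fibroblast, 4 of 7 endothelial, 4 of 5 cholangiocyte, 3 of 4 B cell and 2 of 10 hepatocyte markers lower in males, and 1 macrophage, 1 T and NK cell and 1 cholangiocyte marker higher. Of all genes, 26.2% were lower and 3.75% higher in males. The summed stellate and fibroblast level was between 14.12 and 14.94 in males and between 14.21 and 15.52 in females (log2), and the endothelial level between 13.35 and 14.20 and between 13.48 and 14.82. Their part in the clock differences was not tested.

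The sex difference of *Dbp* was found within each wash batch, at 1.098, 1.78 and 0.93, and that of *Per2* at 0.29, 0.59 and 0.36. In these comparisons all probes shifted, with a median male-minus-female difference of -0.20 in *Pxr*+/+ Cont, -0.03 in *Pxr*+/+ ATB, -0.12 in *Pxr*-/- Cont, -0.18 in *Pxr*-/- ATB and -0.13 in the mean. With quantile normalization of all arrays, which brings this median to 0.02 in the mean, *Dbp* differed by 1.39 (adjusted p = 0.0143) and *Per2* by 0.55 (adjusted p = 0.00268), while *Npas2* differed by -0.13 and *Clock* by 0.11, the opposite sign of its value of -0.04 without it. The median over all probes was also -0.13 for the loss of PXR in male ATB and -0.11 in female Cont mice.

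**Figure D5:**
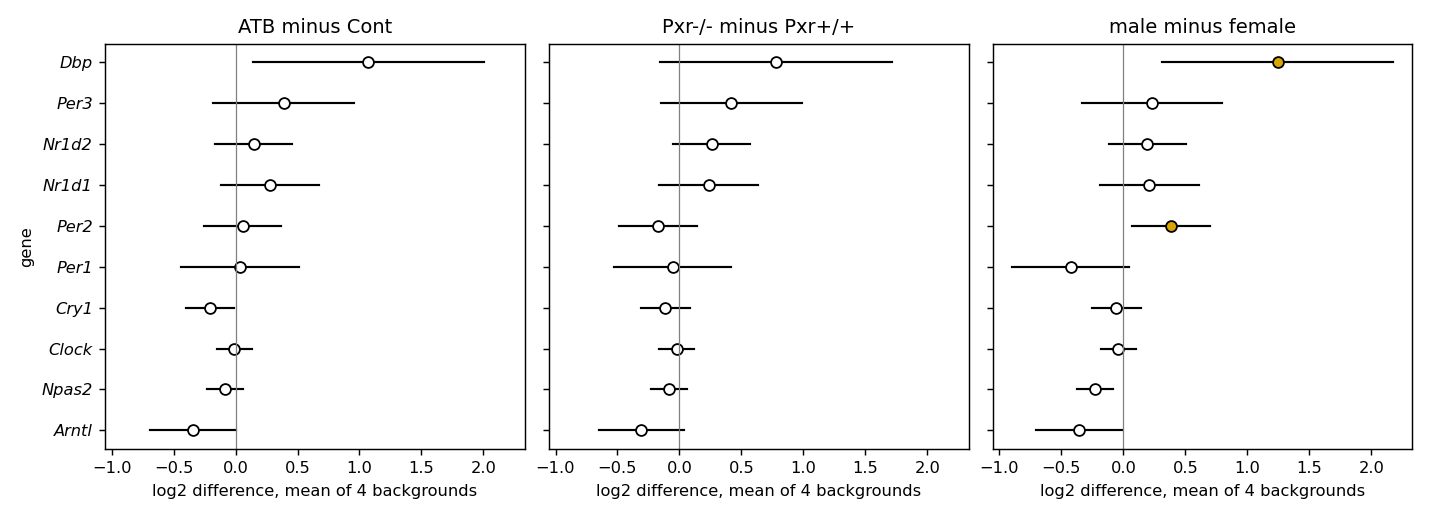
Log2 difference of the brightest probe of each clock gene for ATB minus Cont (left), *Pxr*-/- minus *Pxr*+/+ (middle) and male minus female (right), as the mean of the 4 backgrounds with its 95% interval; gold points were called and white points were not. *Dbp* is at 1.07, 0.78 and 1.24, and the called points are *Dbp* and *Per2* between sexes.

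By background, the sexes differed as follows. In *Pxr*+/+ ATB mice, *Per2* read 9.36, 10.16 and 10.44 (lowest, median, highest) in males and 7.99, 8.68 and 10.51 in females. All but 1 of the females lay under the lowest male. The difference was 1.099 (SE 0.31, limma adjusted p = 0.0123), with 14.4% of all genes called (4.17% higher in males and 10.2% lower). The call was lost when these groups alone were fitted. *Dbp* differed in these *Pxr*+/+ ATB mice by 2.43 (SE 0.91, adjusted p = 0.078) and was not called. In the other backgrounds neither gene was called. *Per2* means in males and females were 9.42 and 9.47 in *Pxr*+/+ Cont mice. They were 9.32 and 9.18 in *Pxr*-/- Cont and 9.50 and 9.16 in *Pxr*-/- ATB mice. Those of *Dbp* were 10.54 and 9.37, 11.21 and 10.36, and 12.07 and 11.54 in the same order.

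In *Pxr*+/+ Cont mice, *Npas2* read 4.18, 4.81 and 5.09 in males and 4.62, 5.20 and 5.46 in females. It was called at a difference of -0.36 (SE 0.14), with 36.6% of all genes called. Above background were 2 of the 6 males and 5 of the 6 females. The probe had met the filter through these females alone, which favors a higher value in them, and no p is given. Its call was lost without any of 22 single mice, with the replicate block, with no wash batch, with quantile normalization, with the authors' values and under 5 other settings given in the closing section. In *Pxr*-/- ATB mice, 1 of the 3 tested *Clock* probes (probe 3, mm9 chr5:76664578-76664637, minus strand) differed by -0.42 (SE 0.15, adjusted p = 0.0277), with 30.2% of all genes called, while the brightest did not pass. That call was lost without any of 4 single mice, male *Pxr*-/- ATB replicates 2 and 6 or female *Pxr*-/- ATB replicates 4 and 6, and with quantile normalization, processed signal, normexp or the authors' values, and the median over all probes was -0.18 there. In *Pxr*-/- Cont mice 0 of the 10 were called by limma, and 0 passed an unadjusted p under 0.05, with 18.6% of all genes called and 36.2% at that unadjusted p.

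Interactions were tested to see whether an effect differed between sexes or genotypes, and none of the 10 genes was called in any of the 6. Of all genes, 0.0183% and 0% were called for the ATB effect in *Pxr*-/- against *Pxr*+/+ males and females, 0.0457% and 0.00457% for the ATB effect in males against females in *Pxr*+/+ and *Pxr*-/- mice, and 0.0229% and 0.0503% for the effect of the deletion in males against females in Cont and ATB mice. The smallest p was that of the ATB effect on *Per2* in *Pxr*+/+ mice, which was higher in males than in females by 1.15 (SE 0.43, unadjusted p = 0.0114, limma adjusted p = 0.317). It was the only member at an unadjusted p under 0.05 in these 6 tests, beside 17.2% of all genes in the same test, and with quantile normalization, which removes a median of 0.16 over all probes there, it was 0.95 (adjusted p = 0.937). The differences of *Dbp* were larger but less precise, at 1.26 (SE 1.29) for the same effect and -1.90 (SE 1.29) for the effect of the deletion in males against females in ATB mice.

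Lists of other genes of the pathway gave counts of the same kind. Of 16 other clock genes tested (of 17 listed), 0 were called with ATB. Without PXR 1 was lower (*Timeless*, by 1 of its 2 probes), beside 3.66% of all genes. In males 3 were lower, beside 26.2% of all genes, with a median difference between sexes of -0.14 beside -0.13 over all probes. The 3 were *Csnk1e*, a kinase of PER proteins (-0.34, SE 0.07, adjusted p = 0.000198), *Timeless* (-0.53, SE 0.06, adjusted p = 2.8e-10) and *Fbxl21*, which encodes a part of a CRY ligase, called by 1 of its 2 probes and at -0.18 in the brighter. *Csnk1e* was called lower in males in all 4 backgrounds, though its brightest probe had a limma adjusted p of up to 0.117. *Timeless* was called lower in 3, and *Btrc* and *Fbxw11*, which encode parts of ligases for PER proteins, in 2 each. *Fbxw11* was at -0.13 at most in its brightest probe. In the single backgrounds, between 10.2% and 34.2% of all genes were lower in males. *Btrc* was also lower without PXR in 2 of 4 backgrounds, male ATB and female Cont. There 0.9% and 3.89% of all genes were lower. *Btrc* was not called in the mean, and its brightest probe ran from -0.43 to -0.06 over the 4 backgrounds.

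Of 8 clock output genes, 0 were called with ATB or loss of PXR and 3 were lower in males, beside 26.2% of all genes. They were *Por*, the electron donor of cytochromes P450 (-1.16, SE 0.12, adjusted p = 2.16e-10, and called in all 4 backgrounds), *Noct*, a NADP(H) phosphatase gene (-0.51, SE 0.19, adjusted p = 0.02), and *Nampt*, which makes a precursor of NAD (-0.43, SE 0.07, adjusted p = 1.17e-06). The median of this list was -0.34 between sexes.

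Of 8 glucocorticoid-responsive genes, 4 were lower in males, namely *Fkbp5* (-1.27, SE 0.24, adjusted p = 2.37e-05), *Cdkn1a* (-0.97, SE 0.22, adjusted p = 0.000286), *Pck1* (-0.51, SE 0.12, adjusted p = 0.000305) and *Sgk1* (-0.34, SE 0.14, adjusted p = 0.0307). The median of this list was -0.43, beside -0.13 over all probes and 26.2% of all genes lower in males. *Dusp1*, a phosphatase induced by stress, was lower with ATB (-0.52, SE 0.14, adjusted p = 0.0173) and without PXR (-0.41, SE 0.14, adjusted p = 0.045). It was the only gene of this list called in these 2 comparisons, beside 0.955% and 3.66% of all genes lower. *Per1*, which followed this list between mice, was at -0.42 between sexes (SE 0.23, 95% interval -0.90 to 0.05, adjusted p = 0.119).

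Of 8 temperature-responsive genes, 2 were higher and 1 was lower after ATB, beside 1.7% of all genes higher and 0.955% lower. *Cirbp*, a cold-induced RNA-binding protein gene, was higher by 0.47 (SE 0.12, adjusted p = 0.0147), and its relative *Rbm3* was called by a probe other than its brightest, which was at 0.29 (adjusted p = 0.0525). *Hsp90aa1*, a heat-shock chaperone gene, was lower (-0.41, SE 0.11, adjusted p = 0.0153). The other heat-shock genes were not called with ATB. Between sexes, *Hspa8* was lower in males (-0.29, SE 0.09, limma adjusted p = 0.0047), beside 26.2% of all genes.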

How the data were processed

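Liver RNA of 47 mice was measured on 1-color Agilent arrays, 1 per mouse. The deposited scanner files, made by the authors with Agilent Feature Extraction 10.10.1.1 per the labels, give spot intensity on a linear scale, with no background subtracted from the median signal used here. The authors also deposited log2 values of 33383 probes, which they had filtered, corrected for wash batch and normalized with CrossNorm, and these served as an alternative. The members and lists were chosen with earlier results of these data known.

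Spots marked non-uniform by the scanner software (422 values) were left out, log2 median signals were taken, wash batch was removed with group means kept, and CrossNorm was run with 300 random stacks of 1 array per group, each quantile normalized. Limma 3.58.1 (R 4.3.3) fitted 8 groups and wash batch over 32979 probes. Calls followed the thresholds in the study's methods, a Benjamini-Hochberg false discovery rate up to 0.05 with a change over 1.2-fold, in at least 1 probe of the gene. Each gene is represented by its brightest tested probe. Gene symbols are those of the arrays, with 1535 probes renamed through RefSeq. The number of arrays limits the precision, and p-values measure the spread between mice.

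Correlations used deviations from group means, with 100000 permutations of mice within groups (Python 3.11.15, numpy 2.4.6). Genes were named by rule: the 10 members, listed genes called in a mean of 4 backgrounds or in at least 2 of 4 single comparisons, and the 3 genes at each end of likeness to *Arntl* and *Dbp*, of which a gene at the low end for *Dbp* is not reported here. Listed genes outside the rule (*Ciart*, *Bhlhe40*, *Usp2*, *Tsc22d3*) were chosen after their values were seen. The fit was tested on simulated data. Alternatives changed the normalization, the background correction, the filter, the batch term, the samples fitted and the probe rule, and left out each array in turn.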

Additional observations from a re-analysis of the deposited data

Results flagged for a closer look

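Of 80 sets of livers (10 genes in 8 groups), 6 held a liver whose gap to its nearest neighbor took up more of the range of the group than Dixon's critical value at 95% allows, and chance gives about 1 in 20 such sets. In female *Pxr*+/+ Cont mice, replicate 1 stood apart in both *Dbp* (13.71, nearest 8.84) and *Arntl* (7.95, nearest 9.43). In male *Pxr*+/+ Cont mice, *Per3* was at 5.77 in replicate 1 (nearest 7.25) and *Npas2* at 4.18 in replicate 3 (nearest 4.76). *Per1* was at 11.51 in female *Pxr*-/- Cont replicate 1 (nearest 12.12), and *Nr1d2* at 9.89 in male *Pxr*+/+ ATB replicate 2 (nearest 10.36).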

How the results depend on the processing

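Counts of clock genes called were the same or within 1.5 times under each alternative except as follows, and the cause was not tested. For males against females in *Pxr*+/+ Cont mice the count was 0 with quantile normalization, processed signal less the 75th percentile, normexp with quantile normalization, no filter on dim probes, the log2 values of the authors, only probes above background on all arrays, no wash batch, the replicate block and only the groups compared. In *Pxr*-/- ATB mice it was 0 with quantile normalization, processed signal, normexp, the authors' values and the brightest probe only. In the mean of 4 backgrounds it was 4 with processed signal and 1 with no filter. With only the groups compared it was 0 in *Pxr*+/+ ATB mice, and the count for ATB in male *Pxr*+/+ mice was 1.

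Leaving out both female *Pxr*+/+ mice with *Dbp* apart, a setting chosen after seeing the data by the *Dbp* value itself and so no support for any of these calls, gave 2 for the loss of PXR in the mean, and between sexes 5 in *Pxr*+/+ Cont, 3 in *Pxr*+/+ ATB and 6 in the mean. With all mice, 4.46%, 36.6%, 14.4% and 29.9% of all genes were called in these comparisons. The share without both mice was not computed, so these counts have no background of their own. Pairs of clock genes at the threshold were 23 within wash batch 1 and 0 within wash batch 2, which holds 2 mice a group.

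Without each mouse in turn, the counts ran from 0 to 1 for ATB in the mean, and between sexes from 0 to 3 in *Pxr*+/+ Cont, 1 to 3 in *Pxr*+/+ ATB, 0 to 1 in *Pxr*-/- ATB and 1 to 3 in the mean, and were 0 in the other comparisons. The *Dbp* difference with ATB in female *Pxr*+/+ mice ran from -0.36 (without ATB replicate 1) to 1.38 (without Cont replicate 1). That with loss of PXR in male ATB mice ran from -0.69 to 0.23 and turned positive without male *Pxr*+/+ ATB replicate 5 (0.23) or, closer to 0, without male *Pxr*-/- ATB replicate 4 or 5.

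Same-numbered mice of compared groups correlated between -0.34 and 0.55, and mice were treated as unpaired. Differently numbered mice were not compared, so these values do not decide whether the numbers pair the mice. The replicate block moved the count in *Pxr*+/+ Cont mice from 1 to 0 and changed no other count of clock genes called.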
